A study of Mus musculus with 8 samples.

Results

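The immunity-related GTPases (IRG proteins) are large interferon-inducible GTP-binding proteins that defend mouse cells against parasites and bacteria living inside vacuoles. Expression of 7 of their genes, Irgm1, Irgm2, Igtp, Iigp1, Ifi47, Tgtp1 and Tgtp2, was followed here across 8 libraries of bone marrow-derived macrophages. The genes were found by their Ensembl identifiers, and all 7 were present among the 36806 gene lines of each deposited expression table. The macrophages were grown from bone marrow of C57BL/6 mice in medium conditioned by L929 cells, a fibroblast line that secretes macrophage colony-stimulating factor. On day 7 the cells were left untreated or received 1 of 7 stimuli for 4 h, and polyadenylated RNA was sequenced, with 1 library per condition. The stimuli were the cytokines IFNg, IL4, TNFa, TGFb1 and IL1b, the mycoplasma-type lipopeptide MALP2 and the unmethylated oligonucleotide CpG. IFNg (interferon gamma) was given at 100 ng/ml, TGFb1 (transforming growth factor beta 1) and MALP2 at 1 ng/ml each, and CpG at 100 nM. The interleukins IL4 and IL1b and the tumour necrosis factor TNFa were each given at 10 ng/ml. The labels give no genetic change in any group, and they do not say whether marrow of several animals was pooled.

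IRG proteins fall into 2 classes that act in opposition. The GMS proteins, encoded by Irgm1, Irgm2 and Igtp (also called Irgm3), sit on the cell's own membranes and hold the other class inactive there. The GKS proteins, encoded by Iigp1 (Irga6), Ifi47 (Irgd), Tgtp1 and Tgtp2 (both Irgb6), are the effectors that load onto the vacuole of a parasite such as Toxoplasma gondii and break its membrane. In mouse macrophages IFNg binds its receptor and signals through the kinases JAK1 and JAK2. Gamma-activated sites (GAS) and interferon-stimulated response elements (ISRE) are promoter sequences known from interferon-responsive genes, and the transcription factor IRF1 binds ISRE.

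Of the 7 genes, 6 lie on chromosome 11 in the coordinates of the deposited tables, which use mouse build mm9, and Iigp1 lies on another chromosome. Irgm1 (ENSMUSG00000046879) spanned chr11:48675469-48685185. Ifi47 (ENSMUSG00000078920), Tgtp1 (ENSMUSG00000078922) and Tgtp2 (ENSMUSG00000078921) were given a single shared interval, chr11:48718157-48948889, which holds 12 gene lines and begins 33.0 kb from Irgm1. Igtp (ENSMUSG00000078853, chr11:58013057-58021093) and Irgm2 (ENSMUSG00000069874, chr11:58028529-58036282) were neighbours 7.44 kb apart, 9064 kb beyond that interval.

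RefSeq promoter windows on GRCm38.p6, from 250 bases before to 50 bases after the gene start, were matched for 6 of the 7 genes, all but Iigp1. The windows were searched for the ISRE letters GAAANNGAAA on both strands and for the GAS letters TTCNNNGAA, which read the same on both strands. The stretches around the matches are shown because 4 of the genes, Irgm2, Igtp, Tgtp1 and Tgtp2, carried a GAS match followed by an ISRE match in the same arrangement. Each 45-base stretch is printed 5′ to 3′ on the strand of its gene, and the capitals mark the GAS match and the ISRE match, or for Irgm1 a pair of overlapping ISRE matches.
Irgm2: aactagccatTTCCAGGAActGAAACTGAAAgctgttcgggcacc
Igtp: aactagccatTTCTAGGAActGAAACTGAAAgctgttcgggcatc
Tgtp1: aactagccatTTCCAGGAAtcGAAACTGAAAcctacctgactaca
Tgtp2: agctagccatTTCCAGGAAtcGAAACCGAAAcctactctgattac
Irgm1: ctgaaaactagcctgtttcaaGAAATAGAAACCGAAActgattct

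These stretches lie on GRCm38.p6 at chr11:58214892-58214936 (plus strand) for Irgm2, chr11:58199501-58199545 (plus strand) for Igtp, chr11:48992300-48992344 (minus strand) for Tgtp1, chr11:49064259-49064303 (minus strand) for Tgtp2 and chr11:48871427-48871471 (minus strand) for Irgm1. In the first 4 the GAS match started 11 bases before the ISRE match, which leaves 2 bases between them. That spacing was chosen for counting after the matches in these genes had been seen. Among all 32851 promoter windows, 1131 (3.44%) held an ISRE match, 2726 (8.3%) held a GAS match and 149 (0.454%) held both. A GAS match 1 to 15 bases before an ISRE match occurred in 25 windows (0.0761%), and the spacing of 11 bases occurred in 5 (0.0152%). Those 5 windows were the 4 above and that of Gm12185, a further IRG-family gene in the interval shared by Ifi47 and the Tgtp genes. Irgm1 had no GAS match, and Ifi47 had neither a GAS nor an ISRE match, which says only that these letters are not in its window. No window of the 6 genes matched the NF-kB consensus, which was found in 2779 windows (8.46%).

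The pair of motifs stood close to the gene start in each case. The ISRE match began 34 bases before the start in Igtp, 64 in Irgm2, 77 in Tgtp1 and 70 in Tgtp2. In Irgm1 the overlapping matches began 30 and 24 bases before the start. The neighbours Igtp and Irgm2 had 72.8% identical promoter windows, and the near-duplicate genes Tgtp1 and Tgtp2 had 67.0%. The other pairs of the 6 windows ranged from 42.2% to 49.7%. The whole window of Igtp, chr11:58199306-58199605 on the plus strand, is shown as the context of the motif pair in the GMS gene with the largest response to IFNg, with the same capitals.
Igtp: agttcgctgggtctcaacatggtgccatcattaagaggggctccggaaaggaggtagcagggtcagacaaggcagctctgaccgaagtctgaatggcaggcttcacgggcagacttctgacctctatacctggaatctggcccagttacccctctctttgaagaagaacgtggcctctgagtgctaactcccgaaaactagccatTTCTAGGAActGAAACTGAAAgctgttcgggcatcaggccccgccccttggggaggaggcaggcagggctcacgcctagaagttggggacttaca

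**Figure D1:**
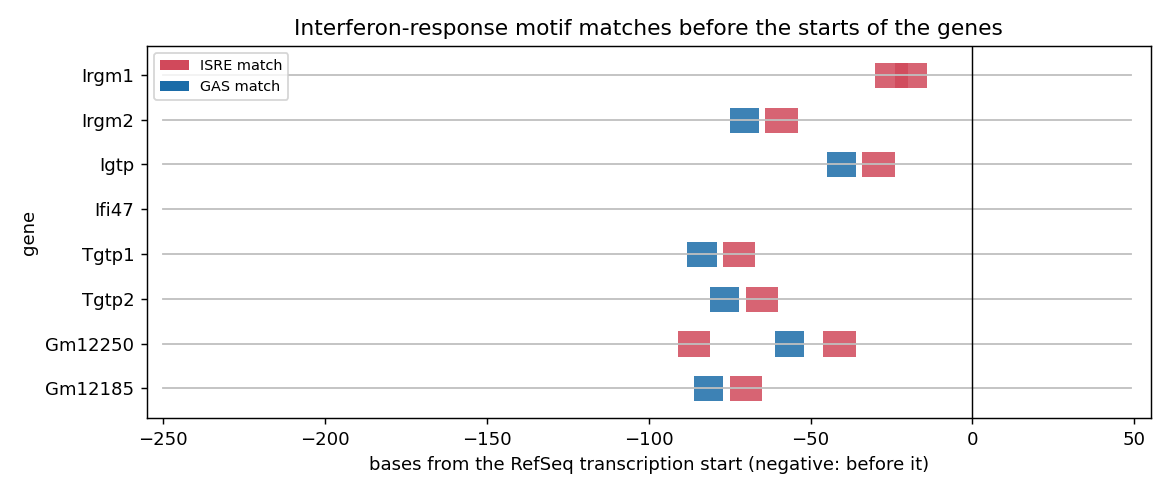
Matches to the ISRE (red) and GAS (blue) letters in the RefSeq promoter windows of the 6 matched genes and of the IRG relatives Gm12250 and Gm12185, drawn to scale against the distance from the gene start in bases. The GAS match stands 11 bases before the ISRE match in Irgm2, Igtp, Tgtp1, Tgtp2 and Gm12185 and 15 bases before one in Gm12250, Irgm1 has overlapping ISRE matches only, and Ifi47 has none.

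Levels are given in FPKM, fragments scaled by transcript length and by the library's mapped fragments. Summed FPKM still differed between libraries, which limits comparison between them. It was 1.10e+06 after IL4 against 1.80e+06 in untreated cells of the same table, and 2.08e+06 after MALP2 against 1.70e+06. The deposited tables pair each stimulus with the untreated library, and they differ from each other by 1 factor per table, so that levels across all 8 libraries are given on a joined scale. A change is log2 of (stimulated FPKM + 1) over (untreated FPKM + 1) within 1 table, which understates the change of a gene with a low level. A gene was counted as higher or lower when it reached 1 FPKM in either library and changed at least 2-fold on that scale. The authors' lower and upper bounds on each FPKM are the only error available, and with 1 library per condition no difference has a replicate check. The files give no total counts, so depth was not known in reads. From the steps between the lowest values, 1 read in the IFNg library was worth 2.03 times its value in untreated cells, against 1.05 to 1.44 times for the other 6 stimuli. Of the 8 macrophage genes found, Csf1r was at 1045 to 1543 FPKM, Cd68 at 1486 to 2171 FPKM and Adgre1 at 561 to 925 FPKM in all 8 libraries. Mertk, a receptor for dying cells, was low and uneven, at 23.1 FPKM in untreated cells and from 1.18 FPKM after MALP2 to 19.8 FPKM after TGFb1. The macrophage marker Lyz2 was listed at 0 in 5 libraries and at 11380 FPKM or more in the other 3, so an FPKM of 0 in these tables can be a failed estimate. No member was listed at 0 in any library.

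All 7 genes stood far higher after IFNg than in untreated cells, and no other stimulus put any of them at 2-fold or more above untreated cells. Among the GMS genes, Irgm1 stood at 109 FPKM in untreated cells, 1277 FPKM after IFNg, 30.0 after IL4, 140 after TNFa, 61.2 after TGFb1, 86.3 after IL1b, 54.8 after MALP2 and 102 after CpG. The IFNg library was alone far above the rest, and the IL4 library was the lowest. Irgm2 stood at 30.3 FPKM in untreated cells, 203 after IFNg, 8.75 after IL4, 31.2 after TNFa, 11.7 after TGFb1, 19.5 after IL1b, 14.1 after MALP2 and 28.0 after CpG. Igtp stood at 32.6 FPKM in untreated cells, 811 after IFNg, 14.4 after IL4, 49.3 after TNFa, 17.9 after TGFb1, 28.2 after IL1b, 24.2 after MALP2 and 45.4 after CpG. Igtp and Irgm2 therefore had like levels in untreated cells and different levels after IFNg. For Igtp the authors' bounds after IFNg, 259 to 1272 FPKM, overlapped those of Irgm2, 52.5 to 332 FPKM.

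Among the GKS effectors, Iigp1 was the lowest of the 7 genes in untreated cells and the one with the largest ratio after IFNg. Iigp1 stood at 0.521 FPKM in untreated cells, 249 after IFNg, 0.253 after IL4, 0.477 after TNFa, 0.166 after TGFb1, 0.265 after IL1b, 0.128 after MALP2 and 0.312 after CpG. It reached 1 FPKM after IFNg only, so it was left out of the 2-fold counts for the other stimuli. Iigp1 (ENSMUSG00000054072) is also the member outside chromosome 11, at chr18:60535682-60552281 in mm9. Ifi47 stood at 62.1 FPKM in untreated cells, 1168 after IFNg, 20.9 after IL4, 71.0 after TNFa, 22.7 after TGFb1, 35.0 after IL1b, 38.6 after MALP2 and 59.9 after CpG. Ifi47 was the most abundant effector in all 8 libraries.

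Tgtp1 and Tgtp2 encode nearly the same effector protein. Tgtp1 stood at 4.19 FPKM in untreated cells, 190.0 after IFNg, 0.714 after IL4, 4.89 after TNFa, 1.2 after TGFb1, 2.45 after IL1b, 1.69 after MALP2 and 3.75 after CpG. Tgtp2 stood at 10.5 FPKM in untreated cells, 425 after IFNg, 2.24 after IL4, 9.94 after TNFa, 4.04 after TGFb1, 7.55 after IL1b, 3.62 after MALP2 and 10.6 after CpG. Both had their highest level after IFNg and their lowest after IL4. Their longest protein-coding transcripts in GENCODE M21 were 99.3% identical. Of the 36-base words in all GENCODE M21 transcripts of Tgtp1, 82.1% also occurred in those of Tgtp2. How the authors' tools divided reads between these genes was not tested, so the separate levels are uncertain and the sum is the safer value. The sum was 580 FPKM after IFNg against 13.8 FPKM in untreated cells of the same table, a log2 change of 5.29. After IL4 the sum was 3.07 FPKM against 15.3 FPKM, a log2 change of -2.00. The other members shared fewer words, again over all transcripts of each gene. In Irgm2 occurred 14.7% of the 36-base words of Igtp and 0.172% of those of Irgm1. Iigp1 and Ifi47 shared none with another member.

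**Figure D2:**
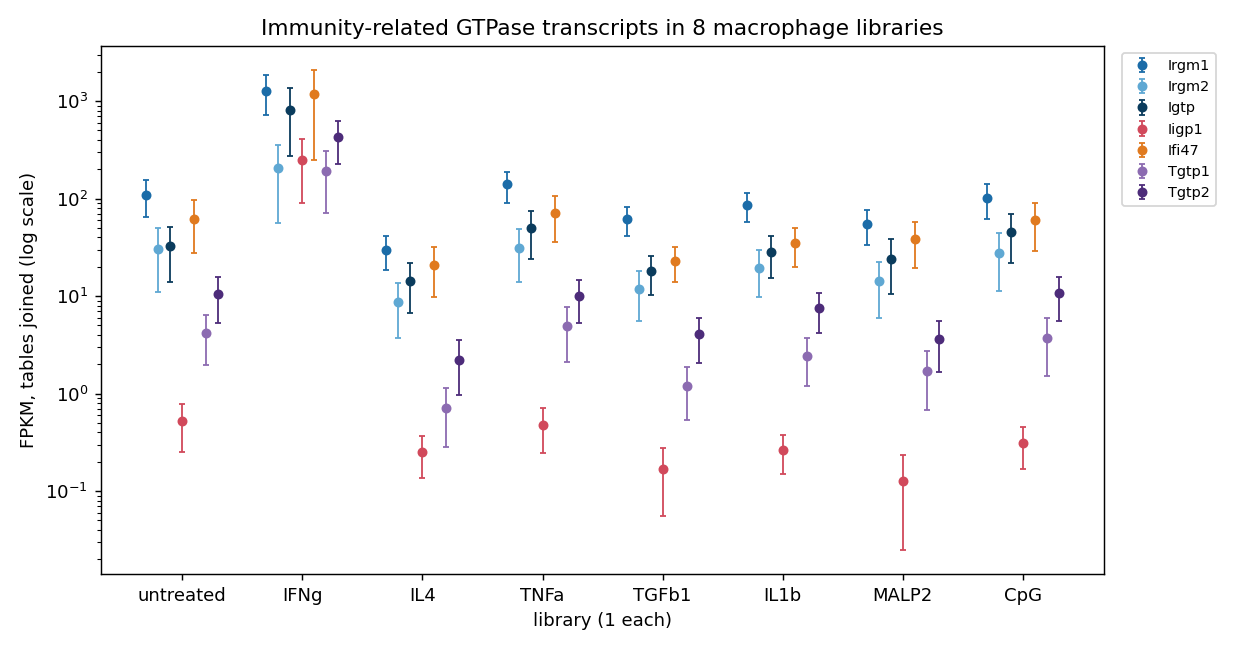
FPKM of each of the 7 genes in the 8 libraries on the joined scale, on a log axis, with the authors' lower and upper bounds as bars. For each of the 7 genes the IFNg point stands alone at the top with bounds that do not meet those of the next library. Most of the other points of each gene overlap.

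The order of the levels was the same at the top for every gene and mostly unresolved below it. For each of the 7 genes the bounds of the IFNg library stood apart from those of the next highest library. The IFNg level was 9.13 times the next highest level for Irgm1, 6.53 times for Irgm2, 16.4 times for Igtp, 478 times for Iigp1, 16.5 times for Ifi47, 38.9 times for Tgtp1 and 40.0 times for Tgtp2. Below IFNg, no neighbours in the order had bounds that stood apart. IL4 gave the lowest level of 6 genes, and MALP2 gave the lowest level of Iigp1. Of the 21 pairs of libraries without IFNg, bounds stood apart in 6 pairs for Irgm1, 6 for Tgtp1 and 5 for Tgtp2. The other genes separated fewer pairs, with 2 for Iigp1, 2 for Ifi47, 1 for Irgm2 and 1 for Igtp.

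The comparison of IFNg-treated with untreated macrophages asks how strongly the family's main inducer acts within 4 h. All 7 genes were higher, with a median log2 change of 4.59, where 10.7% of the 12813 genes tested were higher and 12.7% were lower, and the median of all of them was -0.11. Iigp1, under 1 FPKM in untreated cells, entered this count only through the IFNg library. In the authors' deposited table all 7 were called significant, where 18.9% of genes were. The authors' bounds of all 7 stood above those of untreated cells, where 6.58% of genes did. The response was largest for the effectors Iigp1, Tgtp1 and Tgtp2 and smallest for the regulators Irgm1 and Irgm2.

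Iigp1 was at 235 FPKM (bounds 85.4 to 384) after IFNg against 0.492 FPKM (0.237 to 0.747) in untreated cells, a log2 change of 7.30, and ranked 22 from the top of all genes tested. Its plain ratio was 478, and the nearest bounds were 114 times apart. Tgtp2 was at 401 FPKM (212 to 590) against 9.88 FPKM, a log2 change of 5.21. Tgtp1 was at 179 FPKM (67.8 to 291) against 3.96 FPKM, a log2 change of 5.18. The nearest bounds were 14.3 times apart for Tgtp2 and 11.2 times apart for Tgtp1. Ifi47, also an effector, was at 1103 FPKM (237 to 1969) against 58.6 FPKM (26.2 to 91.0), a log2 change of 4.21.

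The regulators responded over a range of their own. Igtp was at 766 FPKM (259 to 1272) after IFNg against 30.7 FPKM (13.1 to 48.3) in untreated cells, a log2 change of 4.59. Irgm1 was at 1205 FPKM (672 to 1738) against 103 FPKM (60.7 to 145), a log2 change of 3.54. Irgm2 was at 192 FPKM (52.5 to 332) against 28.6 FPKM (10.4 to 46.7), a log2 change of 2.71. The q-value in the authors' deposited table was 0.00107 for Irgm2, the highest of the 7, and its nearest bounds were only 1.12 times apart. Genes that mark stromal cells also moved with IFNg: the 7 listed genes summed to 147 FPKM in that library against 69.2 to 81.7 FPKM in the other 7. The 8 neutrophil genes summed to 416 FPKM after IFNg against 264 FPKM in untreated cells, mostly from S100a8 (197 against 119 FPKM) and S100a9 (161 against 105 FPKM). Ngp (41.8 against 24.8 FPKM) and Ly6g (5.41 against 1.88 FPKM) were also above their untreated level. Elane, Mpo, Camp and Ltf were not, with Ltf at 5.56 against 6.00 FPKM. All 9 genes that mark T cells and natural killer cells stayed under 1 FPKM in the 8 libraries, and Ifng itself was listed at 0 in untreated and IFNg-treated cells. The part of stromal or neutrophil RNA in the levels of the 7 genes was not tested, and in bulk RNA fewer cells of a type and less RNA per cell cannot be told apart.

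**Figure D3:**
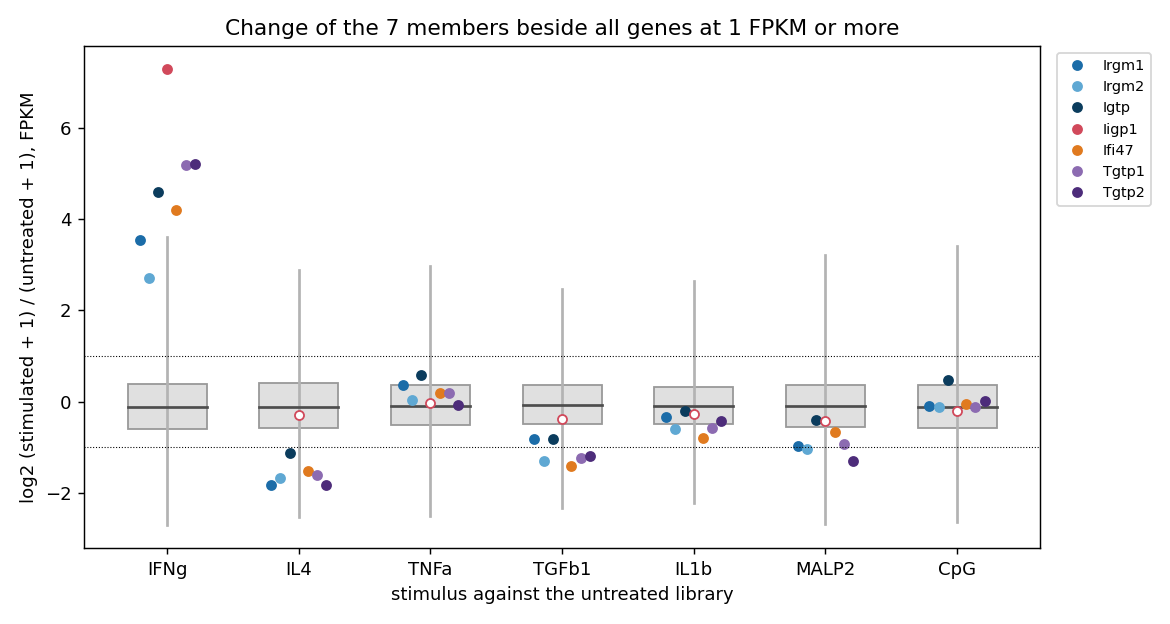
Log2 change of each gene against untreated cells of the same table for the 7 stimuli, with the 2-fold limits marked. All 7 genes lie above the upper limit after IFNg, 6 lie below the lower limit after IL4, 4 after TGFb1 and 2 after MALP2, and none is past either limit after TNFa, IL1b or CpG.

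IL4, which drives macrophages toward the alternatively activated state, gave the lowest family level. Of the 6 genes that reached 1 FPKM, 6 were lower than in untreated cells, with a median log2 change of -1.65, where 11.9% of 12908 genes tested were lower and 9.86% were higher, and the median of all of them was -0.11. Irgm1 had a log2 change of -1.83, Irgm2 -1.69 and Igtp -1.13 among the regulators. Tgtp2 had -1.84, Tgtp1 -1.62 and Ifi47 -1.53 among the effectors. On the plain FPKM ratio, which has no pseudocount, untreated cells held 5.88 times the Tgtp1 level, 4.68 times the Tgtp2 level and 3.64 times the Irgm1 level of IL4-treated cells. For these same genes, Irgm1, Tgtp1 and Tgtp2, the bounds after IL4 stood below those of untreated cells, where 8.24% of genes did. For Irgm2, Igtp and Ifi47 the bounds overlapped. The authors' deposited table called 5 members significant, where 19.2% of genes were, and left out Igtp, with a q-value of 0.113, and Iigp1, with a q-value of 0.129. Neutrophil genes summed to 153 FPKM after IL4, the lowest of the 8 libraries. Untreated cells were at 264 FPKM for these genes, with 217 FPKM after TGFb1, 233 FPKM after IL1b and 353 FPKM after MALP2. The summed IRG level was below untreated cells after IL4, TGFb1, IL1b and MALP2. The part of neutrophil RNA in the result was not tested.

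TGFb1 gave the next largest median deficit. Of the 6 genes at 1 FPKM or more, 4 were at least 2-fold lower (Irgm2, Ifi47, Tgtp1 and Tgtp2), where 9.15% of 12847 genes were lower and 7.15% were higher, and the median change was -1.22 against -0.08 for all genes tested. Ifi47 was 2.67-fold lower, Irgm2 2.47-fold lower, Tgtp1 2.37-fold lower and Tgtp2 2.28-fold lower on the scale with 1 FPKM added. Irgm1 and Igtp were each 1.77-fold lower and were not counted. Of the 6 genes at 1 FPKM or more, the bounds stood below those of untreated cells for the 3 effectors Ifi47, Tgtp1 and Tgtp2, where 7.99% of genes did, and for no regulator. The authors' deposited table called the same 3 significant, where 17.5% of genes were. Iigp1, under 1 FPKM in both libraries and so outside those shares, also had bounds below and an authors' call. For these 4 effectors the authors' deposited table had q-values from 0.00541 for Tgtp1 to 0.0312 for Iigp1. For Irgm2, which was counted as lower, the authors' q-value was 0.0587. No test of the difference between effectors and regulators was possible.

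MALP2, which signals through Toll-like receptor 2 with receptor 6, gave a smaller median deficit than TGFb1, and a less even one. Irgm1, Iigp1 and Tgtp2 stood lower after MALP2 than after TGFb1, and the other members stood higher. The bounds of these libraries stood apart for no member. MALP2 left 2 of 6 genes at least 2-fold lower, Irgm2 (2.07-fold) and Tgtp2 (2.48-fold), where 11.7% of 12722 genes were lower and 9.53% were higher. The median change was -0.96. Igtp was the least changed gene, 1.33-fold lower with overlapping bounds. Of the 6 genes at 1 FPKM or more, the bounds of 0 stood below those of untreated cells, where 8.29% of genes did, and the authors' deposited table called 1 significant, Tgtp2, where 17.7% of genes were. Iigp1, under 1 FPKM in both libraries and outside those shares, had bounds below and an authors' call.

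After TNFa, IL1b and CpG, none of the 7 genes was at least 2-fold higher or lower. The background was 8.92% higher and 10.4% lower for TNFa, 7.29% and 8.57% for IL1b, and 9.43% and 11.2% for CpG. The authors' deposited tables called none of the 7 genes significant after these stimuli, where 17.9%, 16.8% and 18% of genes were, in the same order. The median change of the 6 genes was 0.19 after TNFa, -0.51 after IL1b and -0.07 after CpG. TNFa and CpG thus left the family near its untreated level, where the medians of all genes tested were -0.10 and -0.12. With 1 library each, a change of under 2-fold was not resolved, and that these stimuli leave the family unchanged was not shown.

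All 7 comparisons share the untreated library, so its own level enters each of them. That library stood apart in B cell genes: the 7 found summed to 132 FPKM there and to 16.8 to 32.6 FPKM in the 7 stimulated libraries. Ighm, the immunoglobulin heavy chain, was at 124 FPKM against 15.1 to 29.7 FPKM, and Cd79b, of the B cell receptor, at 7.82 FPKM against 1.58 to 2.85 FPKM. Pax5, a transcription factor of B cells, was listed at 0 in the untreated library. The part of this difference in the IRG changes was not tested. When untreated cells were replaced as the reference by the median over the other 6 stimulated libraries, IFNg still left all 7 genes higher, where 7.72% of genes were, with a median change of 4.95. IL4 still left 6 genes lower, where 5.87% of genes were, with a median change of -1.32. TGFb1 then left 1 gene lower, Ifi47, where 4.03% of genes were, and MALP2 left 1 lower, Tgtp2, where 1.5% were. Under this reference TNFa had a median change of 0.90 and CpG of 0.69, with no gene past 2-fold, where 1.6% and 3.65% of genes were higher and 0.837% were lower in each. IL1b had a median change of -0.10 and no gene past 2-fold, where 1.24% of genes were higher and 1.12% lower.

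**Figure D4:**
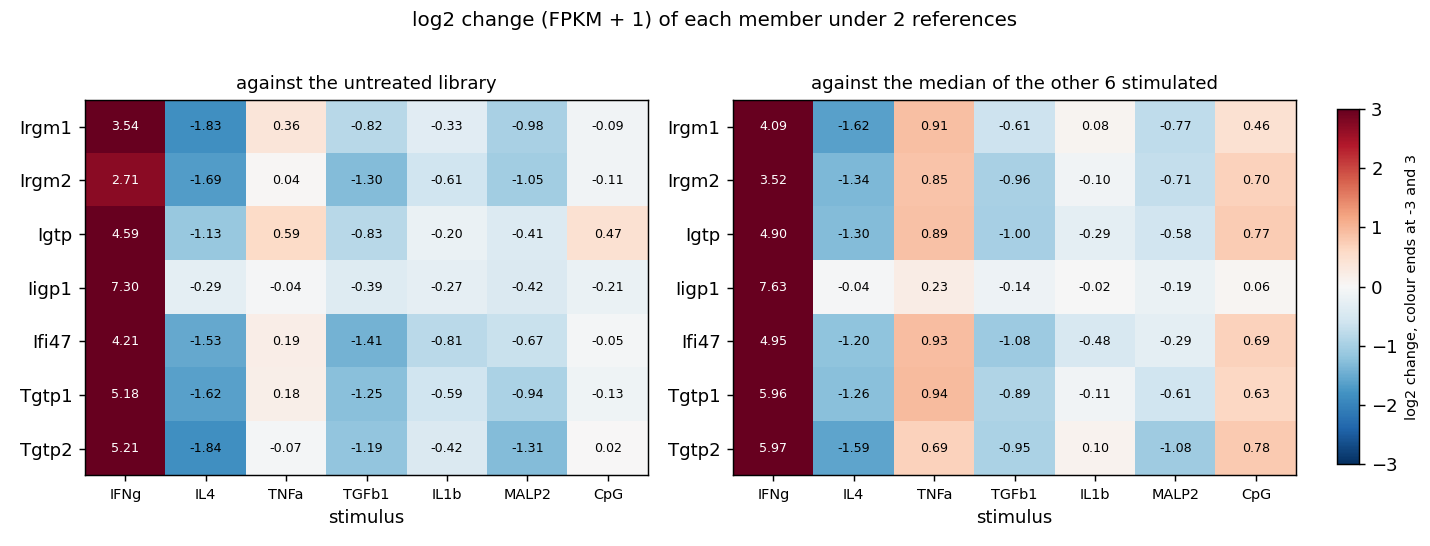
Log2 change of the 7 genes after each stimulus, against untreated cells and against the median of the other 6 stimulated libraries. IFNg stays high and IL4 low with both references, while fewer genes lie at 2-fold or more below the reference for TGFb1 (4 and 1) and MALP2 (2 and 1).

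The balance between the regulators and the effectors among the 7 genes also differed between libraries. The 7 genes summed to 249 FPKM in untreated cells, 4323 after IFNg, 77.2 after IL4, 307 after TNFa, 119 after TGFb1, 179 after IL1b, 137 after MALP2 and 250.1 after CpG. Effectors made up 31.0% of that sum in untreated cells, 47.0% after IFNg, 31.2% after IL4, 28.1% after TNFa, 23.6% after TGFb1, 25.2% after IL1b, 32.1% after MALP2 and 29.8% after CpG. The IFNg library held the largest effector share and the TGFb1 library the smallest. Irgm1 alone made up 43.8% of the sum of the 7 genes in untreated cells and 29.5% after IFNg. Iigp1 went from 0.209% to 5.75%. Among these 7 genes the regulators were more than the effectors in all 8 libraries. The ratio was 2.22 in untreated cells and 1.13 after IFNg. Further IRG genes were outside these sums, such as Gm12250, at 286 FPKM after IFNg on the joined scale. The order of the whole classes was therefore not measured. These shares are of RNA and have no replicate error.

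**Figure D5:**
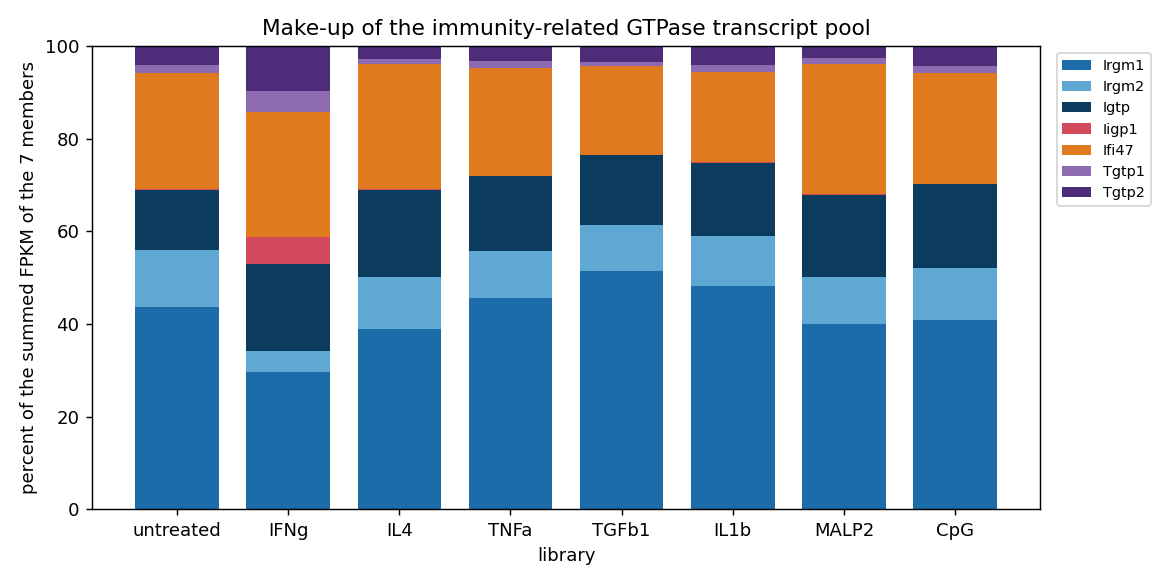
Share of each of the 7 genes in their summed FPKM, in percent, for the 8 libraries, with GMS regulators and GKS effectors in separate colour ranges. Effectors hold 47.0% after IFNg and between 23.6% and 32.1% in the other 7 libraries.

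The IRG family has further members, many of them annotated as predicted genes or pseudogenes. Of 15 such names, 9 were found, and 8 of them reached 1 FPKM in the IFNg comparison. After IFNg, 6 of the 8 were at least 2-fold higher, where 10.7% of all genes tested were, and none was lower. The median change was 2.07, where that of all genes tested was -0.11. Gm12185, Gm4951 and F830016B08Rik were under 1 FPKM in untreated cells. They entered this count only through the IFNg library and could not have been counted as lower. The others had changes of 3.61 (Gm12250), 1.44 (9930111J21Rik1), 1.42 (9930111J21Rik2), 0.95 (Gm5431) and -0.91 (Irgq). Gm12250 was at 270 FPKM against 21.1 FPKM, a log2 change of 3.61, and Gm12185, which has the same motif spacing as the 4 members above, had a change of 3.29. After IL4, 4 of the 5 that reached 1 FPKM were lower, where 11.9% of all genes tested were. The largest change was that of Gm5431, at 3.91 FPKM against 28.4 FPKM. The median change was -1.86, where that of all genes tested was -0.11. Gm5431 and the pair 9930111J21Rik1 and 9930111J21Rik2 were also lower after CpG, with changes of -1.41, -1.14 and -1.30, where 11.2% of all genes tested were. No member passed 2-fold after CpG. Whether these genes differ from the members in this could not be tested. Irgc1, a testis-expressed relative, was near 0 in all libraries, and Irgq, a relative without a working GTP-binding site, had a change of -0.91 after IFNg.

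The guanylate-binding proteins (GBPs) are a separate family of interferon-inducible GTPases that load onto the same vacuoles. All 8 GBP genes found were higher after IFNg, where 10.7% of all genes tested were, with a median log2 change of 5.55. The largest changes were those of Gbp2 (7.50), Gbp2b (7.14) and Gbp4 (6.94). Gbp4 and Gbp8 were under 1 FPKM in untreated cells, so they entered this count only through the IFNg library. GBP genes also passed 2-fold upward after CpG, TNFa and MALP2, where no IRG member did. CpG left 3 of 6 GBP genes higher, where 9.43% of genes were, and none lower, and Gbp2b was at 43.6 FPKM against 3.87 FPKM in untreated cells. TNFa left 3 of 6 higher, where 8.92% of genes were, and Gbp2b had a change of 2.32, Gbp2 of 1.41 and Gbp3 of 1.32. MALP2 left 2 of 6 higher, Gbp2b (1.75) and Gbp2 (1.40), where 9.53% of genes were. After IL4, 2 of 6 were lower, where 11.9% of genes were, and after TGFb1 4 of 6 were, where 9.15% were. GBP genes also have near-identical copies that can share reads, and a test between the families was not possible with 1 library per condition.

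Genes of interferon signalling, which lies upstream of the family, were mostly higher or not past 2-fold after IFNg, and mostly lower after IL4. Of 15 receptor, kinase and transcription factor genes, 7 were higher and 1 was lower after IFNg, where 10.7% and 12.7% of all genes tested were, and the median change was 1.0. Irf1 was at 1650 FPKM against 75.8 FPKM (log2 change 4.43) and Irf8 at 1308 against 155 FPKM (3.07). The lower gene was Ifngr1, the ligand-binding chain of the IFNg receptor, at 44.1 FPKM against 113 FPKM. After IL4, 1 was higher and 8 were lower, where 9.86% and 11.9% of all genes tested were, and the median change was -1.08. Irf7 was at 62.4 FPKM against 244 FPKM and Stat2 at 20.6 against 78.5 FPKM, while Jak2 was the higher gene, at 53.5 against 4.30 FPKM. Irf1 had a change of -1.49 after IL4. Jak2 passed 2-fold upward after all 7 stimuli, which share the untreated library. Of the 7 feedback genes, which damp cytokine signalling, 4 were higher after IFNg, where 10.7% of all genes tested were, with a median change of 1.23. Socs1 was at 260 FPKM against 0.814 FPKM and Socs3 at 287 against 8.43 FPKM. Socs1 was under 1 FPKM in untreated cells and entered the counts only through the stimulated libraries. After IL4, 2 feedback genes were higher and 1 was lower, and Socs1 had a change of 5.65.

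The LC3 conjugation genes, whose products are needed for IRG and GBP proteins to load onto the right membrane, numbered 10, and their median change after IFNg was -0.43. None was higher and 3 were lower after IFNg: Gabarapl1 (-1.60), Atg7 (-1.16) and Atg5 (-1.09), where 12.7% of all genes tested were lower. Gabarapl1 was at least 2-fold lower after all 7 stimuli, which share the untreated library, with changes from -1.71 to -1.27. The authors' q-values for it ran from 0.00989 after TGFb1 to 0.125 after IL4. Of 9 genes for ubiquitin ligases and adaptors that gather on IRG-coated vacuoles, 1 was higher and 1 lower after IFNg, where 10.7% and 12.7% of all genes tested were, with a median change of 0.11. The higher was the antibody receptor and ubiquitin ligase Trim21 (56.2 against 19.8 FPKM) and the lower the autophagy adaptor Nbr1 (-1.84). After IL4 none was higher and 3 were lower, where 9.86% and 11.9% of all genes tested were. The adaptor Sqstm1 led these, at 220 FPKM against 899 FPKM.

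Genes with a pattern like that of the family were ranked over the 8 libraries by Pearson correlation with the mean standardized log2 level of the 7 members. Genes had to reach 5 FPKM in at least 1 library, and 10432 were compared. The nearest were Mlkl (0.994), which executes necroptosis, Tnfsf10 (0.994), the death ligand TRAIL, Enpp4 (0.989), Phf11c (0.989), Gm43302 (0.988) and Irf1 (0.987). The rest of the 10 nearest were ENSMUSG00000074153 (0.986), March5 (0.983), ENSMUSG00000054588 (0.983) and Phf11d (0.983), where the identifiers had no symbol in the tables used. Tnfsf10, Enpp4, Phf11c, Gm43302 and these identifiers reached 5 FPKM only after IFNg. Their likeness to the family over 8 libraries is therefore partly set by that floor. Without the IFNg library, over the remaining 7, the nearest were Ifi209 (0.987), Dtx3l (0.984) and Gm12250 (0.978). Of the 10 nearest genes, 2, Enpp4 and Phf11d, were shared by both rankings. Enpp4 was at 0.138 to 1.32 FPKM in those 7 libraries, under the floor. A correlation of 0.9 or more was reached by 235 genes over 8 libraries and by 55 over 7. Each member's correlation with the mean of the other members was 0.947 to 0.999 over 8 libraries. Without IFNg it was 0.742 for Iigp1, whose levels were then all below 1 FPKM, and 0.936 to 0.997 for the other 6. These values describe 8 libraries that share a protocol and an untreated reference.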

How the data were processed

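Per the submitters' processing notes, the authors used TopHat 1.3.1 for alignment to mouse build mm9, and Cufflinks and Cuffdiff (both 1.2.1) for expression. For read length, strand setting and the level of the authors' bounds, the answer is not given in the sources used here. The deposited FPKM values have, per the file headers, lower and upper bounds, and the deposited differential tables hold the authors' q-values (p-values adjusted over genes) and log ratios. These Cuffdiff q-values compare 2 libraries, not conditions. The authors' highest q-value among their calls was 0.05.

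Each stimulus was compared with the untreated column of its own table, with a pseudocount of 1 FPKM, a floor of 1 FPKM in either library and a 2-fold limit. Tables were joined through the untreated column, with 1 factor each (0.961 to 1.06). Between 336 and 388 genes per table had a failed estimate and were left out. Symbols were matched for 31840 of 36806 identifiers. Promoters came from RefSeq (GRCm38.p6), transcripts from GENCODE M21. Scripts used Python 3.11.15, pandas 2.3.3, scipy 1.17.1 and Biopython 1.88, and were checked on simulated data. All members, gene lists and motifs were chosen with earlier results of these data known. The text names all 7 members, the 10 genes most like them, and in each list the genes with the largest change after IFNg or IL4. Others (such as Gbp3, Ifngr1 and Irgq) were chosen after their values were seen. Some genes of the lists are not reported here.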

Additional observations from a re-analysis of the deposited data

How the results depend on the processing

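All 7 genes stayed higher after IFNg under every alternative run: a pseudocount of 0.1 FPKM, no floor or a floor of 5 FPKM, the authors' call, centring on the median gene, non-overlapping bounds, Tgtp1 and Tgtp2 summed, and the other 6 stimulated libraries as reference. The 6 genes lower after IL4 became 3 when bounds had to stand apart. For TGFb1, 4 lower genes became 1 against the other 6 libraries, where the median was -0.96. For MALP2, 2 lower genes became 1 after centring, 1 with the authors' call, 1 against the other 6 libraries and 0 with bounds apart, and the median of -0.96 became -1.04 with a pseudocount of 0.1 FPKM. The CpG median of -0.07 became 0.029 after centring and 0.69 against the other 6 libraries. The cause was not tested. Of the 10 genes most like the family, 2 were shared without the IFNg library and 3 with Spearman's correlation. No paired analysis was possible because each group has 1 library, and for the same reason no library could be left out of a group. Read depth was unknown, so the counts behind levels under 1 FPKM (Iigp1 outside IFNg, Tgtp1 after IL4) were not known.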

Other observations

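Other genes in the interval shared by Ifi47, Tgtp1 and Tgtp2 did not all follow the family. Psme2b, annotated as a copy of a proteasome activator gene, was at 240.2 FPKM in untreated cells, 698 after IFNg, 188 after IL4, 481 after TNFa, 170 after TGFb1, 250.3 after IL1b, 520.0 after MALP2 and 494 after CpG. Its level was thus above untreated cells after TNFa, MALP2 and CpG as well as after IFNg. Read sharing between Psme2b and the gene it copies was not tested. Gm12186 was at 23.9 FPKM in untreated cells and 11.4 to 18.2 FPKM in the 7 stimulated libraries, with 13.3 FPKM after IFNg. Olfr56, an odorant receptor gene that shares transcript words with Ifi47, was at 0.414 FPKM in untreated cells and 7.02 FPKM after IFNg, and read sharing with Ifi47 was not tested. Of the interferon ligands, Ifnb1 was at 1.85 FPKM (0.412 to 3.29) after IFNg against 0.0497 FPKM in untreated cells, and under 0.25 FPKM after the other 6 stimuli. These genes were chosen after their values were seen.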
